A study of Mus musculus with 38 samples.

Results

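Transcripts of stromal vascular cells from epididymal fat were compared between week 3 and weeks 15 and 18 of feeding, the early and the late end of the dosed part of a dietary time course. All 5 diets were used, with 1 array per diet and week, so that the 5 arrays of week 3 were set against the 10 arrays of weeks 15 and 18, which are 15 of the 38 arrays of the series. The arrays were chosen by week alone. The mice were C57BL/6J, divided into groups after weaning at an age of 3 to 4 weeks. LFC animals received a low fat diet with 10% of calories from fat, and HFC animals a high fat, high sucrose diet with 60% of calories from fat. HF5, HF20 and HF75 animals received the HFC diet with 5, 20 or 75 µg of KAL-1, a botanical formulation. Per the labels, 5 animals of each group were taken every 3 weeks, the tissue was frozen before RNA extraction, and the series' design text names 3 biological replicates, while each diet and week has 1 array. Whether an array holds RNA of 1 animal or of a pool is not given in the sources used here, and the age of the animals at sampling is not stated beyond their age at weaning and the week of feeding. The fits below gave each diet its own mean, so their p-values measure the spread between arrays that remains after diet and time are fitted. No array repeats a diet and week, and this spread may be partly technical.

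The stromal vascular fraction is what remains of fat tissue when the fat-laden adipocytes are removed: macrophages, lymphocytes, endothelial cells, pericytes, mesothelial cells and fibroblast-like progenitors of adipocytes. The labels also call it infiltrating macrophages. Visceral fat of mice holds small lymphoid clusters, in which stromal cells and macrophages release the chemokine Cxcl13 and B cells gather. Epididymal fat lies against the epididymis, the duct in which sperm mature, whose epithelium secretes lipocalins, beta-defensins, ribonuclease-like proteins and protease inhibitors in large amounts.

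Each array measured 40628 probes in 1 colour. The level of a probe is its log2 signal minus the log2 75th percentile of its array, so that 0 is the level of the probe at the 75th percentile, and a difference of 1 is a doubling. The 75th percentile signal was 827 to 1060 scanner units on the 4 other arrays of week 3, but 88.4 on HF75 at week 3. It ran from 1220 to 1400 at week 15 and from 230 to 1110 at week 18, where LFC was the dimmest. The mean difference in log2 brightness between weeks 15 and 18 and week 3 was 0.63, with an exact two-sided permutation p of 0.416 (243 arrangements within diets, smallest possible p 0.00412). Without HF75 at week 3 the difference was -0.17 (exact permutation p 0.790). The share of probes that Feature Extraction marked as well above background ran from 46.3% to 81.9%. Pearson correlations between the 15 arrays ran from 0.835 to 0.983, and no pair was identical. No slide and no scan day held arrays of both week 3 and the late weeks, so week and scan day cannot be told apart. Of 16 general macrophage markers, 15 were well above background on all 15 arrays. So were 10 of 12 adipocyte markers and 16 of 17 endothelial and pericyte markers. Of 14 epididymis markers, 7 were well above background on every array of week 3 and 3 on every array of weeks 15 and 18. On LFC at week 3, Xist, the RNA of the inactive X chromosome, stood at -1.24, against -7.93 to -5.47 on the other arrays of week 3 and -8.52 to -6.17 on the late arrays. Counts and values without HF75 and without LFC at week 3 are therefore given with the results below.

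Of 31012 probes tested with limma, 1514 passed a Benjamini-Hochberg adjusted p of 0.05 between weeks 15 and 18 and week 3, which is 4.88%. Of these, 818 (2.64%) were higher and 696 (2.24%) lower at the late weeks. The median difference was 1.36 log2 among the higher probes and -1.81 log2 among the lower ones, beside 0.12 over all probes tested. Of the 818 higher probes 796 moved the same way in all 5 diets, and of the 696 lower probes 682 did. The fit that chose these probes used the same arrays with diet as a block, so this agreement is no further result. The share over all probes tested was not counted. The levels of week 3 and of the late weeks did not overlap for 746 probes (2.41% of those tested), 482 of them with week 3 below (1.55%) and 264 with week 3 above (0.851%). When every array was scaled to its median in place of its 75th percentile, which put the median of all probes at -0.05 log2, the split turned to 296 higher and 622 lower.

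Leaving out HF75 at week 3 left 374 probes past the threshold, 270 higher and 104 lower. Of the 818 higher probes 203 passed again, and of the 696 lower probes 92 did. All 818 and all 696 kept their sign, with median differences of 1.29 and -1.60 log2. Signs kept here and below come from fits that share their arrays with the fit that chose the probes. They are therefore no further result. Over all 15 arrays left out in turn, the number of calls ran from 23 without LFC at week 3 to 2452 without HFC at week 15.

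**Figure D1:**
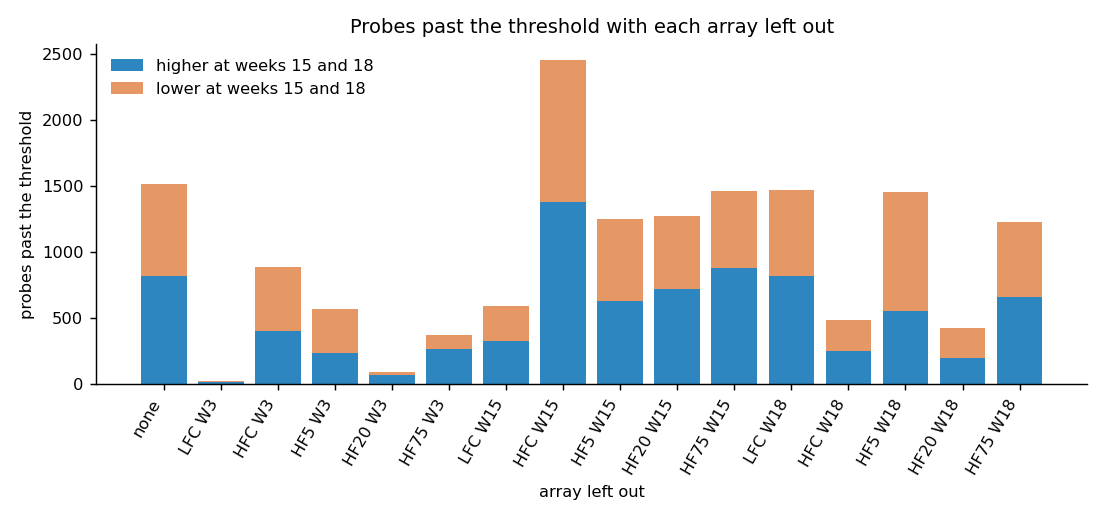
Number of probes past an adjusted p of 0.05 (limma) between weeks 15 and 18 and week 3, with all 15 arrays (first bar) and with each array left out in turn, with blue for higher and orange for lower at the late weeks. The bars run from 23 probes without LFC at week 3 to 2452 without HFC at week 15, beside 1514 with all arrays.

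Immunoglobulin genes, the genes of antibodies, led the named genes that were higher at weeks 15 and 18. By the rule of the smallest p among named genes with the same direction in all 5 diets, 8 of the 12 leading genes were immunoglobulin genes: Ighm, the constant region of the IgM heavy chain, and 7 Igkv segments, the variable parts of the kappa light chain that B cells join by recombination. Ighm (GT_Mm_44k_52_P162637) had a level at week 3 of -5.11 in LFC, -3.25 in HFC, -4.30 in HF5, -3.05 in HF20 and -5.58 in HF75. Its probe was well above background on 4 of these 5 arrays. On HF75 it lay below -3.34, the lowest level marked as well above background on that array. At weeks 15 and 18 its level ran from -2.36 to 0.01 with a median of -0.80. All 10 late arrays lay above all 5 arrays of week 3. The difference was 3.49 log2 (SE 0.44, limma adjusted p 0.00680), or 11.3-fold. It was 3.08 (adjusted p 0.0306) without HF75 at week 3 and 3.35 (adjusted p 0.0480) without LFC at week 3. In bulk RNA, fewer cells of a type and less RNA per cell cannot be told apart.

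Igkv4-57-1 (GT_Mm_44k_52_P449214) had the smallest p of all named genes. Its level at week 3 was -7.91 in LFC, -5.69 in HFC, -6.52 in HF5, -5.07 in HF20 and -5.55 in HF75, and the probe was well above background on 1 of these 5 arrays. At weeks 15 and 18 it ran from -3.43 to -0.82 (median -2.22) and was well above background on all 10 arrays. The groups did not overlap, and the difference was 3.91 log2 (SE 0.38, limma adjusted p 0.00235). A brighter probe of Igkv4-57-1 (GT_Mm_44k_52_P578436), well above background on 4 of 5 arrays of week 3, did not overlap either. It was higher by 3.55 log2 (SE 0.59, limma adjusted p 0.0150), and by 2.75 (adjusted p 0.0361) without HF75 at week 3. Without LFC at week 3 this brighter probe did not pass (3.50 log2, adjusted p 0.0755). Igkv1-132 (GT_Mm_44k_52_P765764) stood at -6.53 in LFC, -4.0 in HFC, -5.17 in HF5, -4.38 in HF20 and -5.65 in HF75 at week 3, and between -2.48 and -0.92 (median -1.24) later. Its groups did not overlap either, with a difference of 3.65 log2 (SE 0.37, limma adjusted p 0.00259), and its probe was well above background on 3 of 5 arrays of week 3. Igkv2-116, Igkv1-135, Igkv4-74, Igkv10-95 and Igkv4-57 were higher by 3.63, 3.25, 3.04, 2.91 and 2.61 log2, each without overlap between the groups. This Igkv1-135 probe was well above background on 1 of 5 arrays of week 3. Another probe of Igkv1-135, higher by 3.28 log2, overlapped between the groups. LFC was the lowest array of week 3 for 7 of the 12 leading genes, and HF75 at week 15 was the highest late array for 7 of the 12. How often this held over all probes tested was not counted.

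Of all 18 Igkv genes tested, 11 were higher past the threshold and 0 lower, beside 2.64% of all probes higher, with a median of 2.81 log2. Of the 18, 0 were well above background on every array, and a gene could be tested through the late arrays alone. With another background correction (normexp, with the 75th percentile) the median was 0.35 log2, so its size depends on the treatment of background. Of the 11, 10 passed again without HF75 at week 3 and 4 without LFC at week 3 (Igkv1-132, Igkv10-95, Igkv2-116 and Igkv4-74). Heavy chain genes moved likewise, with 5 of 7 higher (median 2.65 log2), among them Ighg, the constant region of IgG, at 3.58 log2 (SE 0.55, limma adjusted p 0.0111). Of these 5, 4 passed again without HF75 at week 3, and Ighm did without LFC at week 3. Of the 7 heavy chain genes, 2 were well above background on every array, and with normexp the median of the 7 was 1.07 log2. These families were grouped by symbol after their values had been seen. Igkv segments are alike in sequence, so a probe may take signal from a neighbouring segment and the 11 genes are not 11 independent measurements. Of 12 tested members of the B cell and plasma cell list, 3 were higher and 0 lower (median 1.43 log2), and all 12 differences were above 0. The other members past the threshold were Jchain, the protein that joins IgM or IgA units into polymers, and Ms4a1, which encodes the surface protein CD20.

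Jchain (GT_Mm_44k_51_P150710) stood at 1.67 in LFC, 2.81 in HFC, 2.20 in HF5, 2.0 in HF20 and -1.16 in HF75 at week 3, and between 3.28 and 5.16 (median 4.22) later. There was no overlap, and HF75 was the lowest array of week 3. The difference was 2.85 log2 (SE 0.52, limma adjusted p 0.0192), and 2.15 (adjusted p 0.0424) without HF75 at week 3. Without LFC at week 3 it was 2.84 and did not pass (adjusted p 0.0818). Ms4a1 overlapped between the groups, at -3.50 to -0.33 at week 3 and -1.79 to 2.22 later. Its difference was 2.27 log2 (SE 0.59, limma adjusted p 0.0481), and it did not pass without HF75 at week 3 (2.05 log2, adjusted p 0.111) or without LFC at week 3 (1.90 log2, adjusted p 0.154). Mzb1, a chaperone of antibody-secreting cells, did not pass with all arrays (1.51 log2, limma adjusted p 0.0557).

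Cxcl13 (GT_Mm_44k_51_P378789), the chemokine that draws B cells into follicles, had a level at week 3 of -3.38 in LFC, -2.70 in HFC, -2.54 in HF5, -2.75 in HF20 and -3.18 in HF75. Its probe was well above background on 4 of these 5 arrays. At weeks 15 and 18 it ran from -0.82 to 2.0 with a median of 0.38, all above week 3. The 5 arrays of week 3 lay within 1 log2 unit of each other, while the late arrays spread over almost 3 units. The difference was 3.47 log2 (SE 0.47, limma adjusted p 0.00809), and 3.30 (adjusted p 0.0368) without HF75 at week 3. Without LFC at week 3 it was 3.35 and fell just short of the threshold (adjusted p 0.0581). Its receptor Cxcr5 was higher by 2.76 log2 (SE 0.64, limma adjusted p 0.0360). Il5, a cytokine that sustains B-1 cells and eosinophils, was higher by 2.71 log2 (SE 0.65, limma adjusted p 0.0389), but its probe was well above background on 1 of 5 arrays of week 3. Neither of these 2 passed without HF75 at week 3 (adjusted p 0.0828 and 0.0596) or without LFC at week 3 (0.127 and 0.135). In a list of 12 tested genes of fat-associated lymphoid clusters, chosen after the values had been seen, these 3 were the members past the threshold. Over all probes 2.64% were higher, and the median of the list was 0.47 log2.

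**Figure D2:**
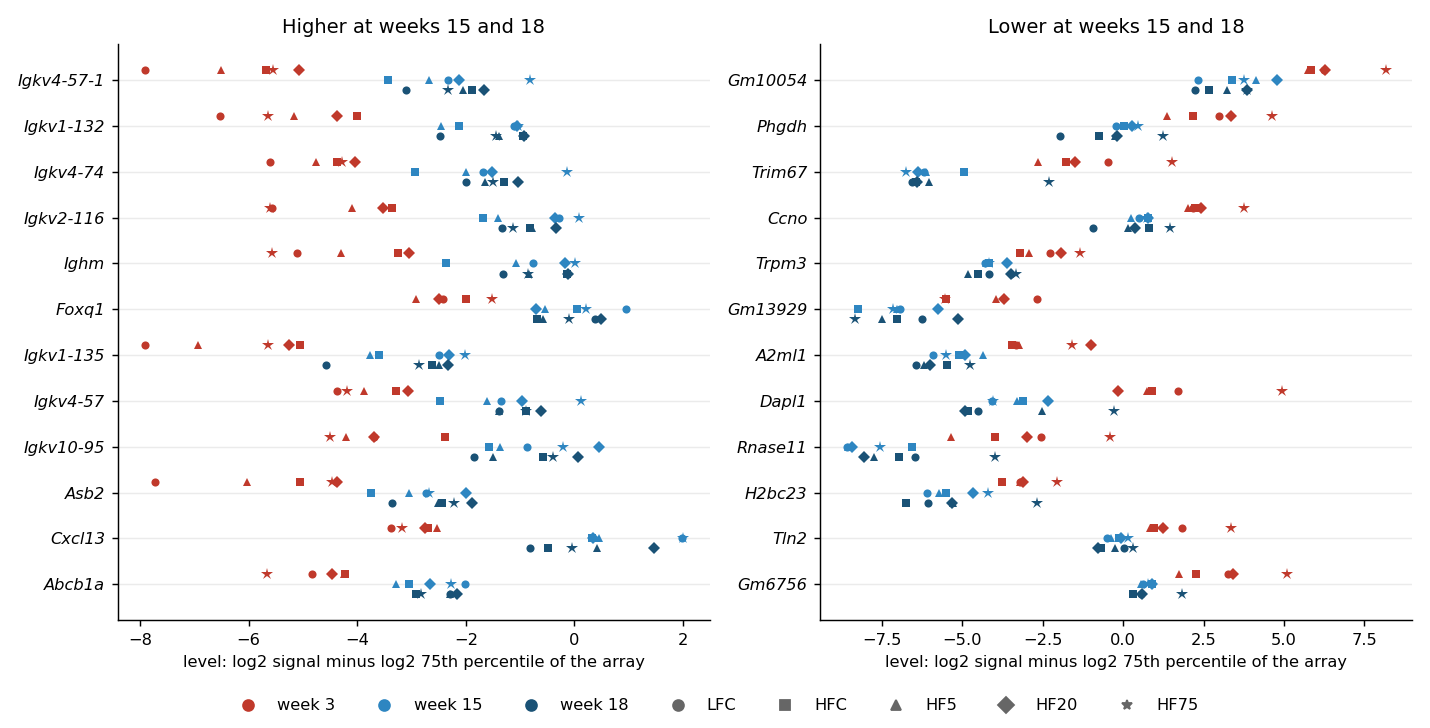
Level on each array (log2 signal minus log2 75th percentile of the array) of the 12 named genes higher (left) and the 12 lower (right) at weeks 15 and 18, with week by colour and diet by symbol. Week 3 lies apart from the late weeks for all 12 higher genes and for 7 of the 12 lower genes. Over all probes tested, 1.55% had week 3 below and 0.851% week 3 above without overlap. The genes were chosen by smallest p on these same arrays, so their separation is no further result. HF75 at week 18 is the highest late array for 9 of the 12 lower ones.

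Apart from Cxcl13, 3 of the 12 leading higher genes were not immunoglobulin genes by name. Foxq1 (GT_Mm_44k_51_P481261), a forkhead transcription factor, stood at -2.42 in LFC, -1.99 in HFC, -2.91 in HF5, -2.49 in HF20 and -1.52 in HF75 at week 3, and between -0.70 and 0.95 (median -0.02) later. It was well above background on all 15 arrays, and its groups did not overlap. The difference was 2.21 log2 (SE 0.28, limma adjusted p 0.00680), 2.37 (adjusted p 0.0257) without HF75 and 2.0 (adjusted p 0.0431) without LFC at week 3. A probe named after Asb2, the substrate-binding part of a ubiquitin ligase, was higher by 2.87 log2 (SE 0.37, limma adjusted p 0.00699). It was well above background on 2 of 5 arrays of week 3, and another probe of Asb2 did not pass. The levels of this probe ran close to those of Igkv4-57-1. At week 3 it stood at -7.72 in LFC, -5.05 in HFC, -6.04 in HF5, -4.37 in HF20 and -4.47 in HF75. Its median at week 6 was -0.67, beside -1.19 for Igkv4-57-1. Whether the probe measures Asb2 was not tested. Abcb1a, the drug efflux pump P-glycoprotein, was higher by 2.11 log2 (SE 0.29, limma adjusted p 0.00809). Its level ran from -5.66 to -4.22 at week 3, where 4 of 5 arrays were well above background, and from -3.28 to -2.01 later.

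Markers of macrophages, the cells after which the labels name the tissue, were measured on nearly every array. Of 16 tested general macrophage markers, 1 was higher past the threshold and 0 lower, beside 2.64% of all probes higher. The median difference was 0.92 log2, beside 0.12 over all probes. The mean level of the list was 1.03 in LFC, 1.79 in HFC, 1.72 in HF5, 1.86 in HF20 and 0.24 in HF75 at week 3, and ran from 0.89 to 2.99 (median 2.10) later, so that the groups overlapped. Without HF75 at week 3 no member of the list passed in limma and its median was 0.59. The member past the threshold did not pass without LFC at week 3 either (limma adjusted p 0.104).

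In the list of alternatively activated macrophages all 11 tested members had a difference above 0, with a median of 1.45 log2. Of these 11, 2 passed, beside 2.64% of all probes higher. Lyve1, a hyaluronan receptor of lymphatic vessels and of some tissue macrophages, stood at 0.44 in LFC, 0.66 in HFC, 0.96 in HF5, -0.09 in HF20 and 0.07 in HF75 at week 3 and between 0.97 and 2.59 (median 2.09) later. The highest value of week 3 and the lowest late value lay side by side without overlap. Its difference was 1.51 log2 (SE 0.31, limma adjusted p 0.0260). Cd209d, a C-type lectin, was higher by 2.24 log2 (SE 0.54, limma adjusted p 0.0398) with overlap. Neither passed without HF75 at week 3 (adjusted p 0.0632 and 0.0786) or without LFC at week 3 (0.0868 and 0.136), while without HF75 the median of the list was 1.42.

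Other members of the cell type and pathway lists that were higher past the threshold stood alone in their lists. They were Cd3e, part of the T cell receptor complex (1.17 log2), Gpm6a, a membrane protein in the mesothelial list (1.78 log2), Igfbp3, a carrier of insulin-like growth factors (1.33 log2), and Dusp1, a phosphatase of MAP kinases (0.99 log2). Igfbp3 passed again without HF75 at week 3 (1.31 log2, limma adjusted p 0.0441), and the other 3 did not. Without LFC at week 3 none of these 4 passed in limma (adjusted p 0.0761 to 0.134). Over the 30 lists together, 10 of 420 members tested were higher (2.38%, beside 2.64% of all probes) and 12 were lower (2.86%, beside 2.24%), so that the lists as a whole were near the background, and 3 and 1 of these passed again without HF75 at week 3, and 1 (Ighm) and 0 without LFC at week 3, where all 22 kept their sign. No member passed in 19 lists, whose medians ran from -0.85 log2 (skeletal muscle) to 1.17 (neutrophil and mast cell). Those lists include inflammatory macrophage genes (0.81), adipocyte genes (0.15), collagens (0.21) and interferon response genes (-0.10).

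**Figure D3:**
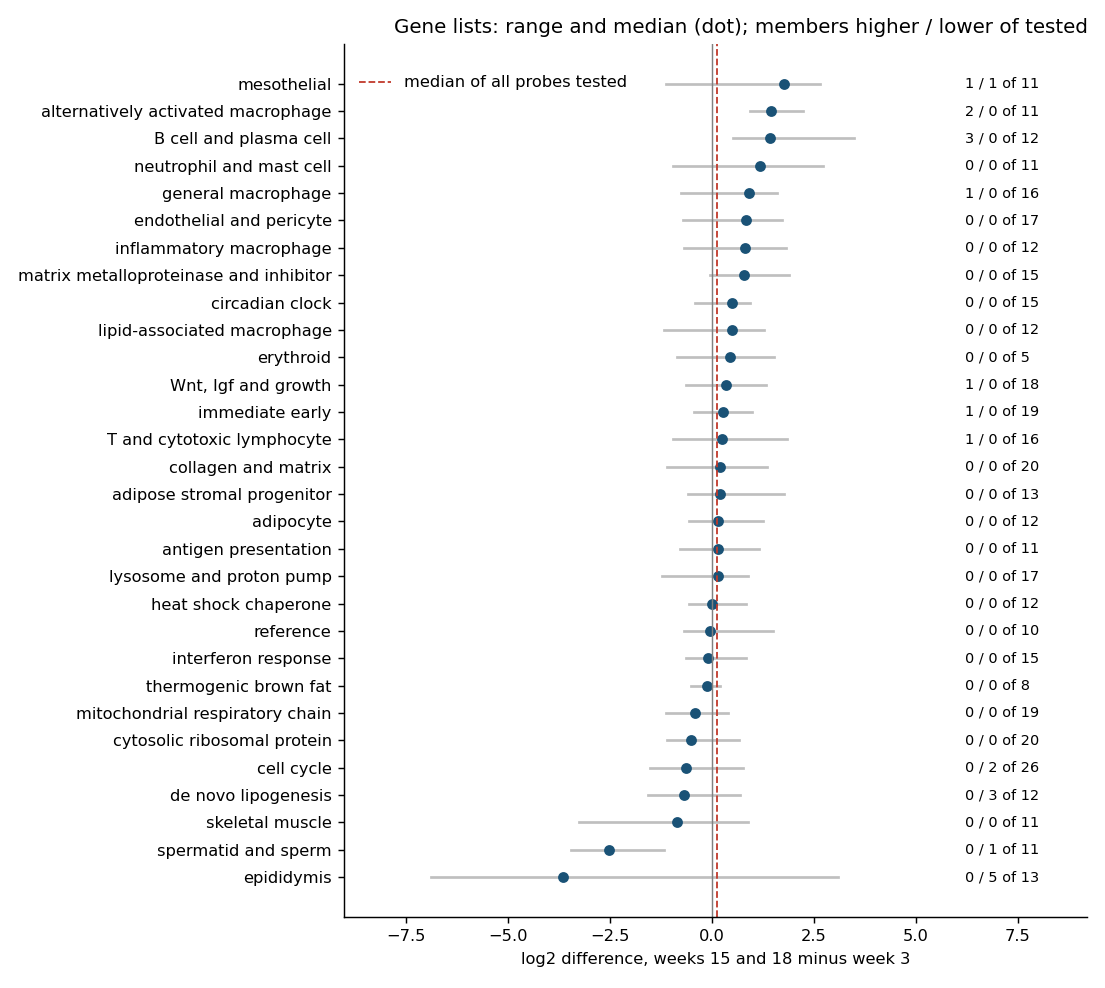
Difference between weeks 15 and 18 and week 3 (log2) for 30 gene lists: the dot is the median of the tested members, the grey line runs from their lowest to their highest value, and the numbers give the members higher and lower past the threshold of those tested. Medians run from -3.65 for epididymis genes to 1.78 for mesothelial genes, beside 0.12 for all probes (dashed line).

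Among the genes that were lower at weeks 15 and 18, the enzymes that make serine from a glycolytic intermediate were 3 that share 1 pathway. Phgdh carries out the first step of this route, Psat1 the next and Psph the last. Their promoters, 250 bases before to 50 after the start of transcription from RefSeq (GRCm38.p6), are shown because these 3 genes moved together. Capitals mark CCAAT or its reverse complement ATTGG, the motif bound by the general factor NF-Y.

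Phgdh, chr3:98339920-98340219, minus strand: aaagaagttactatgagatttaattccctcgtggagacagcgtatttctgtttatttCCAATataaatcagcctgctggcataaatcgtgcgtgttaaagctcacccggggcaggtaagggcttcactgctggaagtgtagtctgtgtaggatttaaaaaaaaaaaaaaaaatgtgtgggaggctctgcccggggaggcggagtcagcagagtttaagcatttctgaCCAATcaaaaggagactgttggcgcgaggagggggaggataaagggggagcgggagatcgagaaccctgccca
Psat1, chr19:15925010-15925309, minus strand: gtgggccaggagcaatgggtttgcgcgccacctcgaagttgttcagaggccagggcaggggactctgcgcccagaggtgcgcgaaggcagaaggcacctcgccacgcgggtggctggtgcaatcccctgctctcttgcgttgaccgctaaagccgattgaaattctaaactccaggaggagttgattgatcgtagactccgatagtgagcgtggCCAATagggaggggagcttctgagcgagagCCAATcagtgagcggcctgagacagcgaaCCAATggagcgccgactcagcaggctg
Psph, chr5:129787204-129787503, minus strand: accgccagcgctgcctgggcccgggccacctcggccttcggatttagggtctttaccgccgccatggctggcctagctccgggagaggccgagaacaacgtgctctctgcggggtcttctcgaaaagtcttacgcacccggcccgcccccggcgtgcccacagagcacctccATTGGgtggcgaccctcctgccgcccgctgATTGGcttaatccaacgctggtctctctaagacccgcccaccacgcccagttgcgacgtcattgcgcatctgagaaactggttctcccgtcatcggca

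The motif occurs 2 times in the Phgdh window, 3 times in that of Psat1 and 2 times in that of Psph, on either strand, and 37.4% of the 32851 mouse promoters of this length hold it at least once. A second start of Psat1 and the promoter of Cad hold no match. TGATGNAA, a form of the site of the amino acid stress factor Atf4 that 3.97% of promoters hold, and the E-box CACGTG, held by 7.15%, have no match in the windows of Phgdh, Psat1, Psph, Cad and Mthfd2. These are matches of letters and say nothing of binding.

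Phgdh (GT_Mm_44k_51_P408729) had a level at week 3 of 2.98 in LFC, 2.17 in HFC, 1.38 in HF5, 3.37 in HF20 and 4.62 in HF75. At weeks 15 and 18 it ran from -1.95 (LFC at week 18) to 1.23 (HF75 at week 18) with a median of -0.08. All late arrays lay below all arrays of week 3, and HF75 was the highest diet of both weeks 3 and 18. The difference was -3.04 log2 (SE 0.38, limma adjusted p 0.00699), or 8.20-fold, -2.85 (adjusted p 0.0318) without HF75 and -2.78 (adjusted p 0.0480) without LFC at week 3. All 3 probes of Phgdh passed, at -3.04, -2.25 and -1.57 log2.

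Psph (GT_Mm_44k_52_P436094) stood at 3.00 in LFC, 1.67 in HFC, 1.21 in HF5, 2.23 in HF20 and 4.67 in HF75 at week 3, and between -0.11 and 1.55 (median 0.26) later. HF5 at week 3 lay within the range of the late arrays, whose highest value was HF75 at week 18. The difference was -2.13 log2 (SE 0.37, limma adjusted p 0.0171). Psat1 changed by -1.77 log2 (SE 0.41, limma adjusted p 0.0364), and did not pass without HF75 at week 3 (-1.33, adjusted p 0.0825). Cad (GT_Mm_44k_52_P16098), the enzyme of the first steps of pyrimidine synthesis, stood at 3.84 in LFC, 3.21 in HFC, 2.80 in HF5, 4.43 in HF20 and 6.09 in HF75 at week 3 and between 0.64 and 2.90 (median 1.25) later. The overlap was between HF5 at week 3 and HF75 at week 18, and the difference was -2.57 log2 (SE 0.41, limma adjusted p 0.0130). Mthfd2, a mitochondrial enzyme of one-carbon metabolism, changed by -1.49 log2 (SE 0.38, limma adjusted p 0.0453).

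These 5 were the members past the threshold, all lower, of 21 tested genes of serine, one-carbon and nucleotide synthesis (beside 2.24% of all probes lower), a list written after the values had been seen. Phgdh, Psph and Cad passed again without HF75 at week 3 and the other 2 did not. Without LFC at week 3 Psph (-2.03 log2, adjusted p 0.0818), Cad (-2.48, 0.0747), Psat1 (-1.63, 0.124) and Mthfd2 (-1.07, 0.141) did not pass, and nor did the Phgdh probe that stands for the gene in the list (-2.26, 0.0694). The median of the 21 was -0.01 log2, beside 0.12 over all probes. Purine synthesis genes such as Gart (0.25 log2, limma adjusted p 0.705) and Paics (0.19 log2, adjusted p 0.587) did not pass, nor did Asns, which makes asparagine (0.32 log2, adjusted p 0.556).

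The remaining leading lower genes were of many kinds. Dapl1 (GT_Mm_44k_51_P391955), a gene of differentiating epithelia, had the largest difference of the 12. At week 3 its level was 1.70 in LFC, 0.89 in HFC, 0.74 in HF5, -0.17 in HF20 and 4.94 in HF75, and later it ran from -4.91 to -0.28 (median -3.67). HF75 at week 18, at -0.28, was the late array nearest to week 3, whose lowest array was HF20 at -0.17. The difference was -5.01 log2 (SE 0.69, limma adjusted p 0.00854), or 32.2-fold. Trim67 (GT_Mm_44k_06608), a ubiquitin ligase described mostly in neurons, stood at -0.48 in LFC, -1.78 in HFC, -2.65 in HF5, -1.49 in HF20 and 1.52 in HF75 at week 3, and between -6.76 and -2.32 (median -6.28) later. The overlap was due to HF75 at week 18, and of the 10 late arrays 6 were well above background. The difference was -4.85 log2 (SE 0.62, limma adjusted p 0.00699), and 6 of its 7 probes passed.

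Ccno (GT_Mm_44k_51_P291501), cyclin O, known for the centrioles of multiciliated cells, stood at 2.16 in LFC, 2.23 in HFC, 2.03 in HF5, 2.42 in HF20 and 3.75 in HF75 at week 3 and between -0.93 and 1.47 (median 0.61) later. The 4 other arrays of week 3 lay within 0.4 log2 units, and the groups did not overlap. The difference was -2.03 log2 (SE 0.26, limma adjusted p 0.00699). Tln2, talin 2, which ties integrins to actin, changed by -1.88 log2 (SE 0.28, limma adjusted p 0.0104), also without overlap. Trpm3, a cation channel, changed by -1.74 log2 (SE 0.23, limma adjusted p 0.00699) and A2ml1, a protease inhibitor of the alpha-2-macroglobulin family, by -2.95 log2 (SE 0.41, limma adjusted p 0.00853). H2bc23, a histone H2B gene, changed by -2.16 log2 (SE 0.31, limma adjusted p 0.00920), with overlap.

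Gm10054, Gm6756 and Gm13929 are predicted genes of no known role. Gm10054 (GT_Mm_44k_11594) stood at 6.24 in LFC, 5.83 in HFC, 5.75 in HF5, 6.28 in HF20 and 8.16 in HF75 at week 3, 1 of these spots being saturated, and between 2.25 and 4.77 (median 3.56) later. Its groups did not overlap, with a difference of -3.03 log2 (SE 0.35, limma adjusted p 0.00522). Gm6756 changed by -2.46 log2 and Gm13929 by -2.66 log2, the latter from a probe well above background on 3 of 5 arrays of week 3 and 2 of 10 late ones. All 24 named genes passed again without HF75 at week 3, with adjusted p between 0.0257 and 0.0424. Without LFC at week 3, 11 of the 24 passed and 13 did not, with adjusted p up to 0.0656 and no change of sign. HF75 was the highest array of week 3 for 10 of the 12 lower genes, and HF75 at week 18 the highest late array for 9 of the 12. How often this held over all probes tested was not counted.

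Genes of proteins that the epididymis secretes were among those with the largest differences. Of 13 tested epididymis markers, 5 were lower past the threshold and 0 higher, beside 2.24% of all probes lower. The median difference was -3.65 log2. The mean level of the list was -1.70 in LFC, 1.26 in HFC, 1.54 in HF5, -0.49 in HF20 and -0.28 in HF75 at week 3. It ran from -6.09 (HF75 at week 15) to 0.48 (HF20 at week 15) later, with a median of -3.29, so that the groups overlapped. Adam7 (GT_Mm_44k_51_P149501), a membrane protein of the epididymal epithelium taken up by sperm, stood at 4.41 in LFC, 3.67 in HFC, 3.63 in HF5, 5.04 in HF20 and 3.21 in HF75 at week 3, and between -3.05 and 2.58 (median 0.02) later. It was the member without overlap, with a difference of -4.01 log2 (SE 0.77, limma adjusted p 0.0216), and -4.46 (adjusted p 0.0441) without HF75 at week 3. Lcn5, a retinoid-binding lipocalin, overlapped, at -0.90 to 6.32 at week 3 (1 spot saturated) and -7.56 to 2.46 later. Its difference was -6.87 log2 (SE 1.76, limma adjusted p 0.0465), and it, Rnase12 (-6.08), Rnase9 (-6.29) and Defb1 (-5.20) did not pass without HF75 at week 3. Without LFC at week 3 none of the 5 passed in limma (adjusted p 0.0951 for Adam7 to 0.149), and all kept their sign. Svs6, of seminal vesicle secretion, was the member with a difference above 0 (3.10 log2, limma adjusted p 0.432).

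Families of secreted proteins that the epididymis is known for moved with this list. Of 36 tested beta-defensin and Spag11 genes, 19 were lower and 0 higher (median -4.88 log2, beside 2.24% of all probes lower), and 3 of the 19 passed again without HF75 at week 3 and 1 (Defb35) without LFC at week 3. Spag11a, an epididymal defensin-like protein, stood at 2.62 in LFC, 1.74 in HFC, 0.93 in HF5, 6.31 in HF20 and 4.20 in HF75 at week 3, 1 of these spots being saturated, and between -5.80 and -0.16 (median -2.74) later, with no overlap. Its difference was -5.59 log2 (SE 0.89, limma adjusted p 0.0125), and -5.77 (adjusted p 0.0666) without LFC at week 3. Of 17 tested Wfdc protease inhibitors, 10 were lower and 0 higher (median -3.59 log2), and 2 of the 10, Wfdc8 (-3.47 log2) and Wfdc11 (-5.12 log2), passed again without HF75. None of the 10 passed in limma without LFC at week 3 (adjusted p 0.0666 to 0.134), and all 10 kept their sign. Both families were grouped by symbol after their values had been seen. A gene could be tested through detection at week 3 alone, where these genes were higher. For the 7 beta-defensin and Spag11 genes well above background on every array the median was -2.12 log2. For the 10 such Wfdc genes it was -2.16 log2. The medians of the whole families therefore lean on late levels near background. Rnase11, one of the 12 leading lower genes and a relative of Rnase9 and Rnase12, changed by -4.23 log2 (SE 0.60, limma adjusted p 0.00899), with a probe well above background on 3 of 10 late arrays.

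Of 11 tested spermatid and sperm genes, 1 was lower, beside 2.24% of all probes, and all 11 differences were below 0 (median -2.52 log2). The mean level of that list ran from -1.63 to 1.09 at week 3 and from -4.33 to 2.71 later, where HF5 at week 18 held the highest value and the other 9 late arrays were at -2.16 or below. Smcp, of the sperm mitochondrial capsule, changed by -3.46 log2 (SE 0.90, limma adjusted p 0.0482), and did not pass without HF75 or without LFC at week 3 (adjusted p 0.108 and 0.142). Since the level of the epididymis list moved with week, it was also entered as a covariate, an alternative chosen after the data had been seen. With it 0 probes passed in limma (2110 with an unadjusted p below 0.05, smallest adjusted p 0.277). All 818 higher and all 696 lower probes, chosen on these same arrays, kept their sign, with medians of 1.14 and -1.40 log2. Ighm differed by 3.08 log2. With the level of the macrophage list as a covariate, 17 probes passed, 8 of the 24 named genes remained past the threshold, and the median differences of the higher and lower probes were 1.15 and -1.42 log2.

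**Figure D4:**
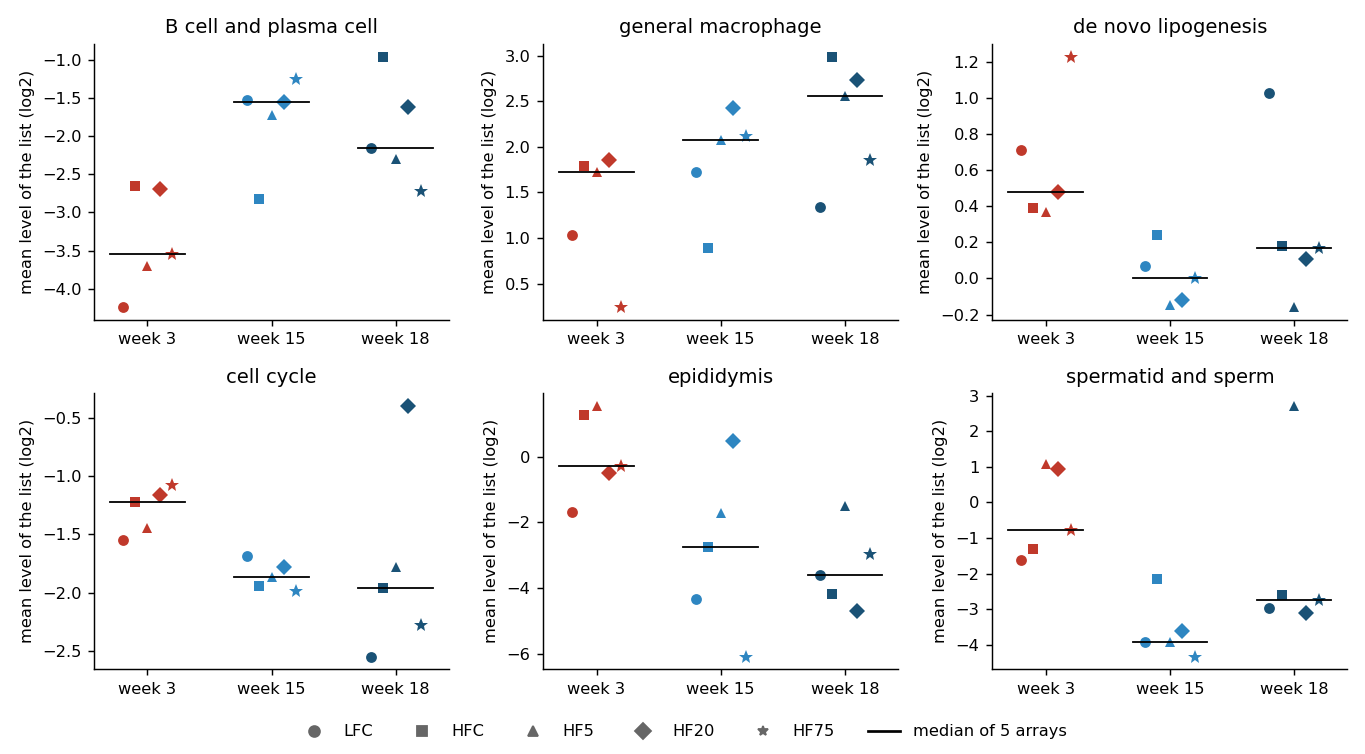
Mean level (log2) of 6 gene lists on each of the 15 arrays, by week and diet, where the line is the median of the 5 arrays of a week. The epididymis list runs from -1.70 to 1.54 at week 3 and from -6.09 to 0.48 later, and the 5 arrays of week 3 lie above the 9 other late arrays of the cell cycle list, with HF20 at week 18 above them at -0.40.

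Genes of fat synthesis were lower at the late weeks in part. Of 12 tested de novo lipogenesis genes, 3 were lower and 0 higher (median -0.68 log2, beside 2.24% of all probes lower). Srebf1, the transcription factor that drives the pathway, stood at 4.37 in LFC, 4.06 in HFC, 4.20 in HF5, 4.38 in HF20 and 5.23 in HF75 at week 3 and between 3.07 and 3.83 (median 3.43) later, with no overlap. Its difference was -1.0 log2 (SE 0.21, limma adjusted p 0.0308). Elovl6, which lengthens fatty acids, changed by -1.51 log2 (SE 0.35, limma adjusted p 0.0357) and the desaturase gene Scd2 by -1.57 log2 (SE 0.40, limma adjusted p 0.0468). None of the 3 passed without HF75 at week 3 (adjusted p 0.0652 to 0.104) or without LFC at week 3 (0.0993 to 0.134), while without HF75 the median of the list was -0.65. The adipocyte list, in contrast, had a median of 0.15 log2.

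Of 26 tested cell cycle genes, 2 were lower and 0 higher, and 22 differences were below 0 (median -0.64 log2, beside 2.24% of all probes lower). Its mean level was -1.55 in LFC, -1.22 in HFC, -1.45 in HF5, -1.16 in HF20 and -1.08 in HF75 at week 3, and ran from -2.55 to -0.40 (median -1.90) later, with HF20 at week 18 above all others. Exo1, an exonuclease of DNA repair and replication, changed by -1.52 log2 (SE 0.34, limma adjusted p 0.0344) and Cenpe, a kinetochore motor, by -0.98 log2 (SE 0.24, limma adjusted p 0.0434), and neither passed without HF75 at week 3 or without LFC at week 3 (adjusted p 0.124 and 0.119). Of 43 tested histone genes 4 were lower (median -0.54 log2, beside the same 2.24%), of which 1 passed again without HF75 and 0 without LFC at week 3 (limma adjusted p 0.0628 to 0.124). Krt18, a keratin of epithelia, was the mesothelial list's member that was lower, at -1.12 log2 (SE 0.29, limma adjusted p 0.0489, 1 spot saturated in each group), and did not pass without HF75 or LFC at week 3, while that list had a median of 1.78.

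Each late week was also set against week 3, in comparisons that share the arrays of week 3. Between week 15 and week 3, 100 probes passed in limma (0.322%), 45 higher (0.145%) and 55 lower (0.177%), and between week 18 and week 3, 1105 passed (3.56%), 755 higher (2.43%) and 350 lower (1.13%). All 24 named genes passed in both, where the arrays of both late weeks share 1 estimate of the spread, Ighm at 3.38 and 3.61 log2 and Phgdh at -2.79 and -3.28 log2. The 24 had been chosen by their difference over both late weeks from these same arrays of week 3. Their passing in both is therefore no further result. Fitted with the arrays of weeks 3 and 15 alone, 0 probes and none of the 24 genes passed in limma (5194 probes at an unadjusted p below 0.05). The smallest p values of week 15 belonged to Igkv4-57-1 (3.88 log2), Lyzl6, a lysozyme-like gene that was lower and well above background on 1 of 10 late arrays, and 4933434M16Rik, not well above background on any late array and at least 1.32-fold lower over both late weeks. Those of week 18 belonged to Igkv4-57-1 (3.94 log2), Chchd6, a mitochondrial inner membrane protein (-3.06 log2), and Tubb3, a neuronal tubulin (2.17 log2).

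Weeks 15 and 18 differed by 1 probe of 31012 (0.00322%, with 2118 at an unadjusted p below 0.05), LOC100043377, named here after its value was seen. It stood between -0.86 and -0.05 at week 15, between -3.78 and -2.27 at week 18 and between -0.84 and -0.52 at week 3, so that week 18 was apart from both. The difference was -2.41 log2 (SE 0.25, limma adjusted p 0.0337). Of named genes, Phf20l1 (-2.79 log2), Alas2, which makes heme in red cell precursors (3.50 log2), and 1300017J02Rik (2.39 log2) had the smallest p and did not pass (adjusted p 0.143).

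Whether the change with time differed between the 4 high fat diets and LFC was asked with an interaction term. In limma 0 of 30999 probes passed (0.0%, with 1048 at an unadjusted p below 0.05 and a smallest adjusted p of 0.71). The smallest p values belonged to Dcdc5 (4.59 log2, SE 0.74), 5730455P16Rik (4.14, SE 0.67) and Upf2 (4.12, SE 0.67). LFC had 1 array of week 3, which limits this comparison. On that array, which also had the high level of Xist, these probes stood at -1.48, -1.32 and -0.90. On the other arrays of week 3 they ran from -6.09 to -3.69.

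The time points between week 3 and week 15 show that the 2 ends were not joined by a steady course. Ighm had a median level of -3.17 over the 8 arrays before week 3, 0.29 at week 6, -0.40 at week 9 and -2.65 at week 12. The 5 arrays of week 6, at 0.12 to 1.90, lay above all 10 late arrays, and the median of week 12 lay between those of week 3 (-4.30) and of the late weeks (-0.80). Cxcl13 had medians of -1.46 before week 3, 0.53 at week 6, -1.29 at week 9 and -0.77 at week 12. Foxq1 had a median of -0.58 before week 3, -2.48 at week 6, -0.99 at week 9 and -0.15 at week 12. Phgdh was at 1.71 before week 3, 2.09 at week 6, 1.82 at week 9 and 4.02 at week 12. Dapl1 was at 0.20 before week 3 and 0.85 at week 6, and then at -4.10 at week 9 and -3.73 at week 12. These are descriptions with no test, as the weeks between had no part in the comparison.

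**Figure D5:**
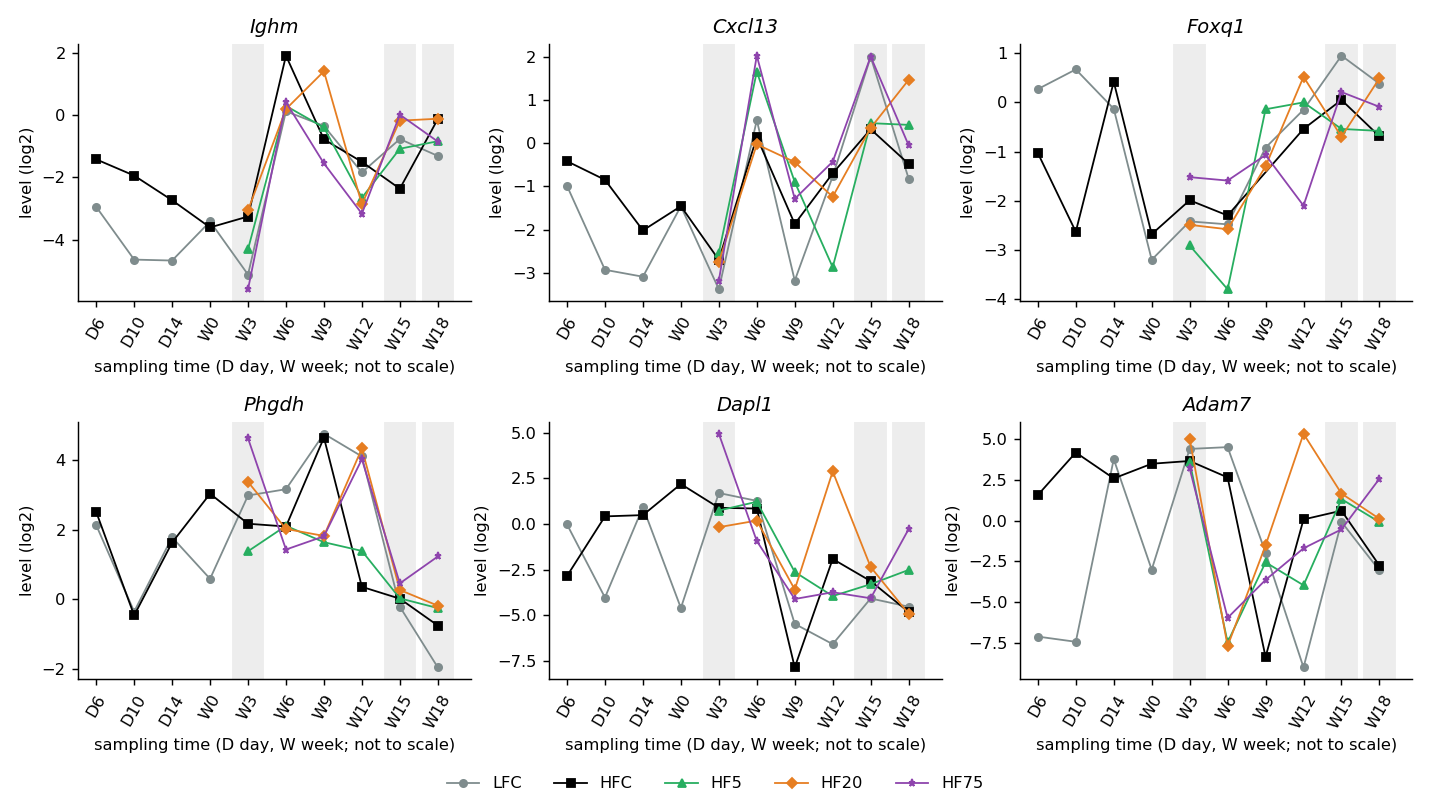
Level (log2 signal minus log2 75th percentile of the array) of 6 genes at each sampling time, 1 line per diet, with the weeks compared shaded and a time axis that is not to scale. Ighm is between 0.12 and 1.90 on the 5 arrays of week 6, above all arrays of week 3, and Phgdh is at or below 1.23 on all arrays of weeks 15 and 18.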

How the data were processed

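RNA of epididymal stromal vascular cells was labelled with Cy3 and hybridised to one-colour Agilent mouse arrays. Per the file headers, the deposited scanner files hold intensity values of Feature Extraction 10.5.1.1 (9.1 in the submitters' processing notes), background subtracted and detrended within the array and not normalised between arrays. The authors' table of log ratios to LFC of the same time point, made in GeneSpring GX, was not used, since it holds no level change between weeks.

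Outlier spots were left out, replicate spots averaged, and the log2 75th percentile of each array subtracted. A probe was tested (31012 of 40628) if at least a share of 0.5 of the week 3 arrays, or of the arrays of weeks 15 and 18, had it well above background. Models were fitted with limma 3.58.1 (lmFit, eBayes) in R 4.3.3, two-sided, with diet as a block, and p-values were adjusted by Benjamini-Hochberg over every probe tested, at 0.05. There were 5 comparisons of probes. The fit was tested on simulated data. The study's methods state no test between weeks. Of the probes, 69.25% were matched by identifier to a RefSeq gene table, which updated 3897 symbols, and 90.15% have a gene name. The array design and that table use different genome builds, so no coordinates of the array's probes are given, and those of the promoters are the table's own (GRCm38.p6). The number of arrays limits the precision.

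The genes named are the 12 higher and 12 lower genes of smallest p among probes past the threshold with the same sign in all 5 diets, 1 probe per gene, the 3 probes of smallest p of each other comparison, and list members past the threshold or, in lists with fewer than 3 of these, of smallest p. Mzb1, Svs6, the sex-linked genes and the members of lists and families written later fall outside this rule and were named after their values were seen. A list gene is represented by its tested probe of highest mean level. The arrays, lists and tests were chosen with earlier results of these data known. The dose was taken from the title and source name: the diet field of HF5 and HF20 at weeks 15 and 18 names the other dose, which was tried as an alternative. Some members of the lists are not reported here by name. Alternatives in background correction, scaling, filter, blocks, weights and arrays were run.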

Additional observations from a re-analysis of the deposited data

Results flagged for a closer look

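In groups of 5 arrays, 1 array stood apart from the other 4 in 8 of 99 groups examined, where chance marks about 1 in 20 groups (4.95 here). Igkv1-135 was at -4.58 on LFC at week 18, with the nearest array of that week at -2.86. Gm10054 was at 8.16 on HF75 at week 3 (nearest 6.28), and Ccno at 3.75 on the same array (nearest 2.42). Trim67 was at -2.32 on HF75 at week 18 (nearest -6.05). Trpm3 was at -3.61 on HF20 at week 15 (nearest -4.16). The log2 75th percentile signal was 6.47 on HF75 at week 3 (nearest 9.69). The mean level of the de novo lipogenesis list was 1.03 on LFC at week 18 (nearest 0.18), and that of the spermatid and sperm list was 2.71 on HF5 at week 18 (nearest -2.61). A difference between the 2 late weeks was found for LOC100043377, at -2.41 log2 for week 18 minus week 15.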

How the results depend on the processing

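Counts below are probes past the threshold in limma for, in this order where named, the late weeks, week 15 and week 18 minus week 3, and week 18 minus week 15. With normexp background correction and the 75th percentile they were 1, 0, 0 and 4, and the median of all probes was -0.42 log2. With normexp and quantile scaling week 15 gave 231, week 18 minus week 15 gave 6 and the interaction 4. Quantile scaling gave 2 for week 15. Median scaling gave 918, 256 and 437. Requiring every array well above background gave 663 for week 18 and 3 for week 18 minus week 15. No filter gave 451, 25, 285 and 0. No diet block gave 2327, 384, 1711 and 7. The dose from the diet label gave 17 for week 15 and 0 for week 18 minus week 15. Brightness as a covariate gave 0 for week 15, 4022 for week 18 and 0 between them. Scan day as a random block gave 724, 3, 369 and 0, and array weights 3908, 486, 4687 and 6. Trend and robust options gave 226 for week 15. Week 15 alone gave 0 (5194 unadjusted) and week 18 alone 828. The methods' t-test gave 1979 for the late weeks, 21 for week 15, 138 for week 18 and 0 between them.

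Chosen after seeing the data, leaving out HF75 at week 3 with LFC at week 18 gave 91 and, for week 15, 0. Leaving out HF75 at weeks 3 and 18 gave 916, 8, 1690 and 2. The epididymis level as a covariate gave 0 in all 4, and the macrophage level gave 17, 22, 0 and 0. Unadjusted counts behind these zeros ran from 1398 to 13884. Leaving out 1 array at a time, the counts ran from 23 to 2452, from 0 to 981, from 1 to 1827 and from 0 to 2, and the interaction from 0 to 3 over 14 arrays. For the late weeks, counts over 1.5 times apart came without LFC (23), HF20 (95), HF75 (374), HF5 (572) or HFC (889) at week 3, LFC (590) or HFC (2452) at week 15, and HF20 (427) or HFC (489) at week 18. Brightness ran from -0.17 without HF75 at week 3, its 1 reversal, to 0.95. The cause of these moves was not tested.

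Among named genes, Igkv1-135 (-0.08), Asb2 (-0.06) and Abcb1a (-0.20) reversed with normexp and the 75th percentile, where 1 of the 24 passed. All 24 missed the threshold with week 15 alone and with the epididymis covariate. List medians were retaken under quantile scaling, with members above background on every array, with all probes of a member, or without HF75 at week 3. Of these 120 medians, 119 moved by less than 1 SD over diets, while the heat shock list moved from -0.00 to 0.41 with all its probes. The 120 cover the 30 lists and not the families grouped by symbol. With members above background on every array the beta-defensin and Spag11 median moved from -4.88 to -2.12 (SD over diets 1.12). Of the Igkv genes, 0 were above background on every array. Under normexp with the 75th percentile 7 of 30 list medians moved by 1 SD or more, among them B cell (1.43 to 0.35), mesothelial (1.78 to 0.33), neutrophil and mast cell (1.17 to -0.10), antigen presentation (0.15 to -0.42) and circadian (0.49 to 0.20), and 6 changed sign. Under median scaling 3 changed sign, from 0.15 or 0.14 to -0.02 (adipocyte, antigen presentation, lysosome), and under quantile scaling 2 did. No paired analysis was possible because replicate numbers only name arrays, and diet was the block. The medians of the B cell, macrophage, lipogenesis, cell cycle, epididymis, immunoglobulin, Wfdc and defensin lists kept their sign under 3 other scalings, with a lowest Igkv median of 0.35 under normexp. Probes near background are limited by HF75 at week 3, where 46.3% were well above it.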

Other observations

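Among the probes lower at weeks 15 and 18, HF75 was the highest array of week 3 for 520 of 696 and HF75 at week 18 the highest late array for 343 of 696. Among those higher at the late weeks, HF75 was the lowest array of week 3 for 343 of 818. The same counts over all probes tested were not made, and HF75 at week 3 was the dimmest array. These counts therefore cannot be read as a trait of the called probes.

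Of the Y-linked genes, Ddx3y stood between -1.12 and 0.17 at week 3 and between 0.42 and 1.97 at weeks 15 and 18, and on LFC at week 3, where Xist was at -1.24, it was at 0.08. Eif2s3y was at 1.65 on that array, within the 0.76 to 2.09 of the other arrays of week 3. Kdm5d stood between -2.87 and -1.99 at week 3 and between -3.40 and -2.03 later, and Uty between -5.61 and -4.13 and between -6.80 and -2.48. Of these genes Ddx3y passed between the late weeks and week 3, at 1.28 log2 (SE 0.25, limma adjusted p 0.0232).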
